A study of Homo sapiens with 6 samples.

Results

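The aryl hydrocarbon receptor pathway was followed through 6 genes, AHR, ARNT, AHRR, CYP1A1, CYP1B1 and TIPARP, out of 60651 gene rows. They were taken by name, as the receptor, its partner, its repressor and 3 of its direct targets. All 6 are on a row, and 5 of them had enough reads to be tested. AHRR did not. RNA was sequenced from MDA-MB-231, a human triple-negative breast cancer cell line with wild-type genotype per the labels. Treatment lasted 24 h, with DMSO (the solvent) as control and AF-EAE at either 75 µg/ml or 150 µg/ml. The series title gives AF-EAE as what ethyl acetate extracts from a plant, Antenoron filiforme, and its constituents are not named. Each group has 2 libraries, so there are 6 in all. The labels number them as biological replicates without saying whether they came from separate cultures, so a p-value here speaks only of the spread among these 6, which may be technical.

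AHR is a ligand-activated transcription factor that waits in the cytoplasm in a complex with HSP90 and other chaperones. When a ligand binds, it enters the nucleus, pairs with ARNT and binds a short DNA element, the xenobiotic response element. CYP1A1 and CYP1B1, which encode monooxygenases of the cytochrome P450 family 1, are its best known targets. AHRR and TIPARP are targets that feed back on the receptor. AHRR competes for ARNT, and TIPARP (also PARP7) is an ADP-ribosyltransferase that marks AHR. Many plant compounds, flavonoids among them, are known as AHR ligands or antagonists.

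Promoters of 3 targets of the receptor are shown because the receptor complex is known to read the letters GCGTG. The RefSeq windows (GRCh38.p14) run from 250 bases before a gene's start to 50 bases after it, 300 bases in all, and 5 of the 6 genes matched, AHR, ARNT, AHRR, CYP1A1 and TIPARP. Capitals mark GCGTG on the printed strand, or CACGC, which is the same motif on the other strand. The CYP1A1 window lies on the minus strand at chr15:74725479-74725778, the first TIPARP window on the plus strand at chr3:156674340-156674639, and the first AHRR window on the plus strand at chr5:321464-321763.
CYP1A1: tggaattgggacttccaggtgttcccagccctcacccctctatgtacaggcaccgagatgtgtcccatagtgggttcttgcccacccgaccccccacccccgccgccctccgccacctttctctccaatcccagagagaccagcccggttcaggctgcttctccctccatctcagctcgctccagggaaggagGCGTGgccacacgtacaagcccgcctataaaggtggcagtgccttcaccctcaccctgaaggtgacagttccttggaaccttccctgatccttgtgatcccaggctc
TIPARP: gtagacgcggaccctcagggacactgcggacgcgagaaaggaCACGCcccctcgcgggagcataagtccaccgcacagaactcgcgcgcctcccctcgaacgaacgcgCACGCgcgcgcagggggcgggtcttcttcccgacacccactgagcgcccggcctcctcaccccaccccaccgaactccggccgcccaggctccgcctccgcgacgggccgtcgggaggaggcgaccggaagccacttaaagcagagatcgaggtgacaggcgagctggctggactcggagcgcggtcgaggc
AHRR: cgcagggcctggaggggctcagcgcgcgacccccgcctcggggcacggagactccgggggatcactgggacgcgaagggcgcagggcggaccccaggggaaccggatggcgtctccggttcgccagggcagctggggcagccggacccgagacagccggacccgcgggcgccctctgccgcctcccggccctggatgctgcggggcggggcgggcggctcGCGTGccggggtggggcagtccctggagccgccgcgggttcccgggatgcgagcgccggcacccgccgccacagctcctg

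The CYP1A1 window holds GCGTG once, 57 bases before the start. The first TIPARP window holds it at 2 places, both on the other strand, with first bases 208 and 142 before the start, while its other windows hold none. AHRR has it 30 bases before the start in the window shown, where it is part of the longer form TNGCGTG, and at 2 places in its second window. The AHR window holds it once, 38 bases after the start, and the ARNT window holds none. Of all 35116 promoter windows in the table, 36.5% hold GCGTG at least once, 12.7% at least 2 times, and 5.51% hold TNGCGTG. The shorter motif is also one of the letter strings of the hypoxia response core. The best studied response elements of CYP1A1 lie in an enhancer farther upstream than this window.

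Gene counts per library ran from 15621103 to 17113722, and levels are given in CPM, counts scaled to a common library size with TMM, a correction for the composition of each library. In a library 3 counts correspond to 0.174 to 0.196 CPM, and such floors and the intervals on counts cover counting error only. The 6 marker genes of the cell line (VIM, CD44, CAV1, AXL, MSN and LGALS1) each averaged over 10 CPM. Their summed level was 4932 to 5105 CPM in DMSO, 3688 to 3778 CPM at 75 µg/ml and 2902 to 2959 CPM at 150 µg/ml. In the same order the sums were 46.6 to 49.4, 47.9 to 53.3 and 47.5 to 48.7 CPM for 8 luminal epithelial markers, and 8.06 to 10.5, 11.8 to 12.8 and 11.7 to 12.2 CPM for 8 fibroblast and endothelial markers. They were 2.08 to 4.25, 4.46 to 5.40 and 3.38 to 5.10 CPM for 6 hepatocyte markers. Of these markers and those of leukocytes, TFF1, APOA2, FGB, DCN, PTPRC and CD3E had no count in any library. The part of the markers' shift in the results was not tested. In bulk RNA a change in the share of cells that express a gene and a change in RNA per cell cannot be told apart.

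With AF-EAE the partner ARNT and the targets CYP1A1, CYP1B1 and TIPARP rose at both doses, AHR itself was slightly lower at 150 µg/ml, and AHRR was too low to test. Differences were tested by a quasi-likelihood fit in edgeR over all 15589 genes with enough reads, with p adjusted by the method of Benjamini and Hochberg and a threshold of 0.05. Such calls were common. At 150 µg/ml against DMSO 51.5% of the tested genes were called, 25.8% higher and 25.7% lower, and all 5 of the tested pathway genes were called, 4 higher and AHR lower. For 75 µg/ml against DMSO 38.6% were called, 19.2% higher and 19.4% lower, and 4 of the 5 were called, all higher. A call whose fold change was at least 1 on the log2 scale, up or down, was made for 11.7% of genes at 150 µg/ml, where CYP1A1, CYP1B1 and TIPARP had one, and for 6% at 75 µg/ml, where CYP1A1 and CYP1B1 had one.

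Groups whose libraries do not overlap were common too. Both libraries at 150 µg/ml lay above both DMSO libraries for 39.2% of tested genes, and for 4 of the 5, and below them for 35.6%, AHR among them. The shares were 35.2% higher and 33.3% lower at 75 µg/ml against DMSO, with the same 4 higher and AHR lower. Directions are relative to the scaling. Under total counts all tested genes had a median log2 fold change of 0.22 at 150 µg/ml and 0.14 at 75 µg/ml, against 0.03 and 0.01 with TMM. With this scaling 6021 genes at 150 µg/ml were higher and 2544 lower, in place of 4022 and 4000, and at 75 µg/ml 4494 and 1819, in place of 2989 and 3026. The rises of ARNT, CYP1A1, CYP1B1 and TIPARP over DMSO were called at both doses in each of 14 alternative fits.

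The first question was how the receptor and its nuclear partner differed at either dose. ARNT rose at both doses, and AHR was slightly lower at 150 µg/ml, a call that several alternatives did not keep. Gene positions follow the GENCODE 29 annotation of hg38. ARNT (ENSG00000143437, minus strand of chromosome 1, 150809705 to 150876768), the partner that AHR needs on DNA and that also pairs with the hypoxia-inducible factors, had 52.2 and 52.9 CPM in the DMSO libraries, 65.2 and 68.9 CPM at 75 µg/ml and 73.6 and 73.4 CPM at 150 µg/ml. The groups did not overlap. The log2 fold change was 0.48 at 150 µg/ml against DMSO (SE 0.0673, adjusted p = 1.1e-05, edgeR) and 0.35 at 75 µg/ml against DMSO (SE 0.0679, adjusted p = 0.000529, edgeR). Between the doses the difference was 0.13 (95% interval -0.01 to 0.27, adjusted p = 0.170), and it passed the threshold of 0.05 when libraries were scaled by total counts (0.19, adjusted p = 0.0429).

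AHR (ENSG00000106546, plus strand of chromosome 7, 16916359 to 17346152), the receptor itself, had 36.5 and 42.0 CPM in the DMSO libraries, 36.4 and 32.5 CPM at 75 µg/ml and 33.5 and 33.1 CPM at 150 µg/ml. The libraries at 150 µg/ml lay below both DMSO libraries, and one library at 75 µg/ml was almost level with the lower DMSO library. The log2 fold change at 150 µg/ml against DMSO was -0.24 (SE 0.0935, 95% interval -0.43 to -0.04, adjusted p = 0.0434, edgeR). This call was lost under total-count scaling (-0.05, adjusted p = 0.681), the stricter count filter (-0.20, adjusted p = 0.0730) and DESeq2 (-0.26, adjusted p = 0.0788), and also without DMSO replicate 2 (-0.14, adjusted p = 0.341) or without replicate 1 (-0.25, adjusted p = 0.111) or replicate 2 (-0.23, adjusted p = 0.134) of the 150 µg/ml group. At 75 µg/ml against DMSO the value was -0.19 (95% interval -0.38 to 0.01, adjusted p = 0.126, edgeR). It was -0.29 without DMSO replicate 1, -0.09 without DMSO replicate 2, and -0.28 and -0.11 without replicate 1 or replicate 2 of the 75 µg/ml group, and it passed in none of the 14 alternative fits.

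AHR's level depends on how reads in shared exons were counted. Of its 8081 exonic bases in GENCODE 29, 2608 (32.3%) are shared with other genes, 2373 of them with ENSG00000283321 on the same strand, which had 0 counts in every library, and 270 with ENSG00000237773 on the opposite strand. Depending on the counting mode, reads that lie in both genes can be left out of both counts. ENSG00000237773 had 10 to 23 counts per library and passed no test. Per kb of exonic length AHR was at 4.86 ± 0.477 CPM in DMSO, and per kb of its unshared exonic length at 7.17 ± 0.705 CPM (SD, n = 2). On the unshared scale it was at 6.29 ± 0.515 CPM per kb at 75 µg/ml and 6.08 ± 0.0516 CPM per kb at 150 µg/ml (SD, n = 2 each). ARNT, which shares no exonic base with another gene, was at 8.07 ± 0.0828 CPM per kb in DMSO, 10.3 ± 0.399 at 75 µg/ml and 11.3 ± 0.0206 at 150 µg/ml (SD, n = 2 each).

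AHRR (ENSG00000063438, plus strand of chromosome 5, 304176 to 438291), the repressor, had 4 and 0 counts in the DMSO libraries, 1 and 2 counts at 75 µg/ml and 6 and 1 counts at 150 µg/ml. The sums of 4, 3 and 7 counts have exact 95% Poisson intervals of 1.09 to 10.2, 0.619 to 8.77 and 2.81 to 14.4. All 3 intervals overlap, and a difference in AHRR was not detectable at this depth. The gene PDCD6, which shares 244 exonic bases with AHRR on the same strand, had 17.5 to 25.05 CPM in the 6 libraries. Its value at 75 µg/ml against DMSO was -0.32 (adjusted p = 0.0374, edgeR), a call lost in 5 of 14 alternative fits.

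**Figure D1:**
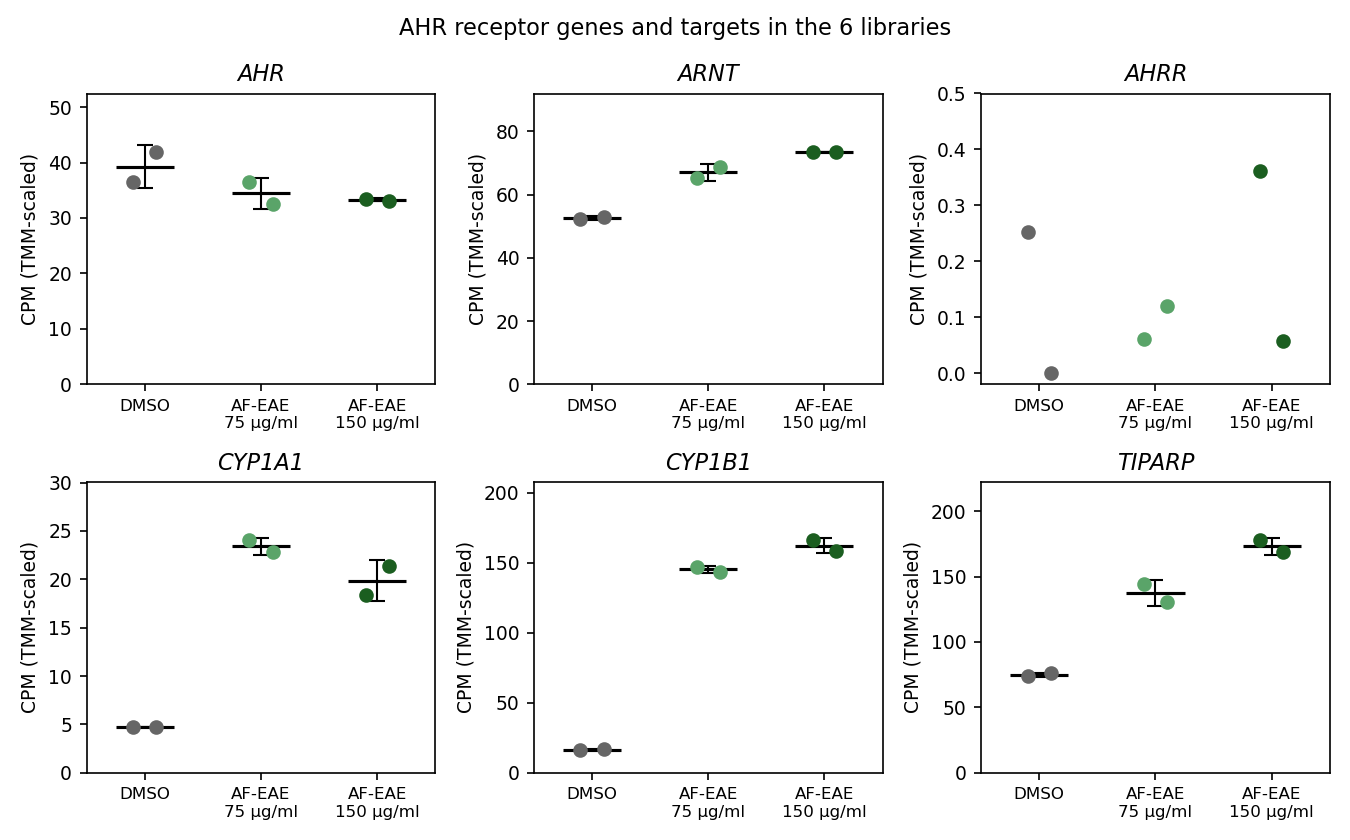
TMM-scaled CPM of the 6 genes (y axes) in the DMSO, 75 µg/ml and 150 µg/ml libraries (x axes). Each point is a library, bars are the mean and whiskers the SD of 2 libraries, and AHRR is shown as points only. CYP1B1 stands at 144 to 166 CPM in the 4 AF-EAE libraries and at 16.2 and 16.7 CPM in the DMSO libraries.

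The second question was how the target genes answered each dose. All 3 measured targets rose at both doses, CYP1B1 most. CYP1B1 (ENSG00000138061, minus strand of chromosome 2, 38066973 to 38109902), which encodes the family 1 monooxygenase common outside the liver, had 16.2 and 16.7 CPM in the DMSO libraries, 147 and 144 CPM at 75 µg/ml and 166 and 159 CPM at 150 µg/ml. The AF-EAE libraries were all far above the DMSO libraries. Its level was 9.87-fold higher at 150 µg/ml than in DMSO (log2 fold change 3.30, SE 0.0696, adjusted p = 1.5e-15, edgeR) and 8.83-fold higher at 75 µg/ml than in DMSO (3.14, SE 0.0700, adjusted p = 9.4e-15, edgeR). Among the 15589 tested genes its p ranked 1 at 75 µg/ml and 2 at 150 µg/ml, and its log2 fold change ranked 54 and 78 from the top.

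CYP1A1 (ENSG00000140465, minus strand of chromosome 15, 74719542 to 74725610), the classic inducible monooxygenase, was low in these cells. It had 4.72 and 4.77 CPM in the DMSO libraries (75 and 73 counts), 24.0 and 22.8 CPM at 75 µg/ml and 18.3 and 21.4 CPM at 150 µg/ml. Both doses were clear of DMSO, and the libraries at 150 µg/ml lay below those at 75 µg/ml. The gene was 4.18-fold higher at 150 µg/ml than in DMSO (log2 fold change 2.06, SE 0.141, adjusted p = 1.7e-09, edgeR) and 4.93-fold higher at 75 µg/ml than in DMSO (2.30, SE 0.140, adjusted p = 1.3e-09, edgeR).

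TIPARP (ENSG00000163659, plus strand of chromosome 3, 156673235 to 156706770), the feedback ADP-ribosyltransferase, had 73.7 and 76.1 CPM in the DMSO libraries, 145 and 131 CPM at 75 µg/ml and 178 and 168 CPM at 150 µg/ml. The 3 groups did not overlap. It was 2.31-fold higher at 150 µg/ml than in DMSO (log2 fold change 1.21, SE 0.0618, adjusted p = 4.0e-11, edgeR) and 1.84-fold higher at 75 µg/ml than in DMSO (0.88, SE 0.0624, adjusted p = 8.8e-09, edgeR).

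**Figure D2:**
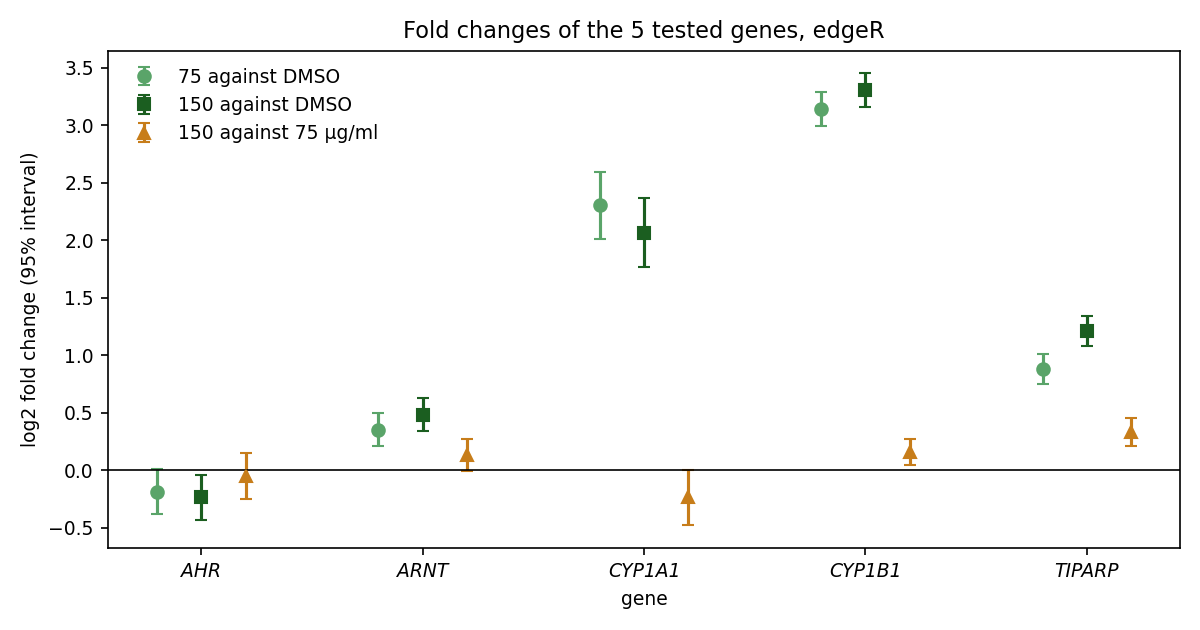
Log2 fold changes of the 5 tested genes (y axis, with 95% intervals) for 75 µg/ml against DMSO, 150 µg/ml against DMSO and 150 against 75 µg/ml, 2 libraries per group. Symbols are circles, squares and triangles in that order, and the line is at 0. CYP1B1 is at 3.14 and 3.30 against DMSO and at 0.16 between the doses.

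The 2 comparisons with DMSO share the DMSO libraries, so they are not independent of each other. The comparison of 150 with 75 µg/ml asked whether the targets went on rising. The values of the 3 targets differed, and whether the step differs between genes was not tested. TIPARP rose further, by 0.33 on the log2 scale (SE 0.0585, adjusted p = 0.000600, edgeR), where 22% of all tested genes were called and 9.51% were higher. Its libraries at 150 µg/ml lay above both at 75 µg/ml, as did those of ARNT and CYP1B1, and those of CYP1A1 lay below. Without overlap between the doses were 60.6% of all tested genes, 29.9% higher and 30.7% lower. For CYP1B1 the difference was 0.16 (SE 0.0540, 95% interval 0.05 to 0.27, adjusted p = 0.0434, edgeR), or 1.12-fold, and that this step was small was known from earlier results of these data. The call was lost with DESeq2 (adjusted p = 0.142), with no filter on low counts (adjusted p = 0.0896), and without either library of the 75 µg/ml group (adjusted p = 0.124 and 0.240) or of the 150 µg/ml group (adjusted p = 0.264 and 0.0589). No gene of the 5 had a called change of 1 or more between the doses on the log2 scale, as 1.45% of all genes did. For CYP1A1 the difference was -0.24 (SE 0.115, 95% interval -0.48 to 0.01, adjusted p = 0.161, edgeR). It was -0.12 without replicate 1 and -0.35 without replicate 2 of the 150 µg/ml group. For AHR it was -0.05 (95% interval -0.25 to 0.15, adjusted p = 0.774, edgeR).

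In terms of level, the mean gain over DMSO at 75 µg/ml was 88.4% of the gain at 150 µg/ml for CYP1B1 (gains of 129 CPM at 75 and 146 CPM at 150 µg/ml), 63.9% for TIPARP (62.7 and 98.2 CPM) and 69.1% for ARNT (14.5 and 20.9 CPM). For CYP1A1 it was 123% (18.7 and 15.1 CPM). CYP1B1, TIPARP and ARNT each had most of their gain at the lower dose and their highest mean at 150 µg/ml. CYP1A1 had its highest mean at the lower dose. The ratio of CYP1B1 to CYP1A1, each per kb of exonic length, was 1.96 and 2.00 with DMSO, 3.50 and 3.60 with the lower dose and 5.18 and 4.23 with the higher. The groups did not overlap in this ratio, but the ratio was not tested and its 2 values at 150 µg/ml lay well apart. Between the doses 60.6% of single tested genes did not overlap either, and the share among ratios of genes was not counted.

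Compared per kb of exonic length, TIPARP had the highest level of the 6 genes in each group, at 14.8 ± 0.333 CPM per kb in DMSO, 27.3 ± 1.96 at 75 µg/ml and 34.3 ± 1.32 at 150 µg/ml. CYP1B1 was at 2.74 ± 0.0654 CPM per kb in DMSO, below ARNT and AHR, at 24.2 ± 0.425 at 75 µg/ml and at 27.0 ± 0.911 at 150 µg/ml, second to TIPARP at both doses. On the unshared scale CYP1B1 was at 27.8 ± 0.489 CPM per kb and TIPARP at 27.5 ± 1.98 at 75 µg/ml, so that their order at that dose depends on the length used and the difference is within their spread. CYP1A1 was at 1.38 ± 0.0104 CPM per kb in DMSO, 6.82 ± 0.258 at 75 µg/ml and 5.78 ± 0.626 at 150 µg/ml (SD, n = 2 for each value). AHRR had the lowest level in each group.

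CYP1B1 shares 783 of its 6014 exonic bases (13.0%) with other genes, 678 of them with the antisense gene CYP1B1-AS1. No source used here says whether the libraries keep the strand, so reads of the pair cannot be told apart with certainty. CYP1B1-AS1 had 0.441 and 0.915 CPM in the DMSO libraries (7 and 14 counts), 2.01 and 1.44 CPM at 75 µg/ml and 2.47 and 3.19 CPM at 150 µg/ml. It rose at 150 µg/ml against DMSO (log2 fold change 2.06, SE 0.410, adjusted p = 0.000420, edgeR). CYP1B1-AS1 passed the filter on low counts only through AF-EAE libraries, since DMSO replicate 1 was too low, so a fall could hardly have been called. At 75 µg/ml against DMSO its value was 1.35 (SE 0.434, adjusted p = 0.0206, edgeR), a call lost with DESeq2, without DMSO replicate 1 and without replicate 1 of the 75 µg/ml group. RMDN2, which shares 96 bases, had 5.10 to 7.98 CPM and passed no test, and RMDN2-AS1, which shares 69, had at most 10 counts in a library. TIPARP shares 37 bases with TIPARP-AS1, which had 9 to 15 counts per library and passed no test. CYP1A1 shares none.

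The wider pathway was described with 7 lists, counted over the members that passed the filter on low counts. Their counts are read beside the shares of all tested genes, 25.8% higher and 25.7% lower at 150 µg/ml and 19.2% higher and 19.4% lower at 75 µg/ml, each against DMSO. Genes known as AHR-induced in some cell type, other than the 6, were mostly higher. Of 22 such genes 14 were tested. At 150 µg/ml against DMSO 13 rose, none fell and ABCG2, a drug efflux transporter gene, did not pass (log2 fold change -0.44, adjusted p = 0.199), with a list median of 1.93 beside 0.03 for all tested genes. For 75 µg/ml against DMSO 10 rose and 4 did not pass, with a median of 1.44 beside 0.01. Under total counts the figures were 13 and 12. SERPINB2 (0 and 2 counts in the DMSO libraries), KYNU (8 and 4) and STC2 (9 and 9) passed the filter on low counts only through AF-EAE libraries. For them a call could hardly be other than a rise, so their rises say nothing of the list. The list was also chosen with earlier results of these data known. EREG, the gene of the growth factor epiregulin, had 166 and 142 CPM at 150 µg/ml against 14.3 and 16.5 CPM in DMSO (log2 fold change 3.32). IL1B, the gene of interleukin-1 beta, had 141 and 147 CPM at 150 µg/ml against 12.2 and 17.8 CPM in DMSO (3.26). Both were also higher at 150 than at 75 µg/ml, EREG by 1.26 and IL1B by 0.68 on the log2 scale (adjusted p = 8.5e-09 and 1.6e-05, edgeR). NQO1, a quinone reductase gene shared with NRF2 and chosen after its values were seen, was at 626 ± 6.84 CPM at 150 µg/ml, against 448 ± 4.41 CPM in DMSO (log2 fold change 0.48), and at 620 ± 25.6 CPM at 75 µg/ml (SD, n = 2 each). Many genes of this list are also targets of NF-kB, NRF2 or the ATF4 response. Of the untested genes, GSTA1, GSTA2, IDO1, UGT1A1 and UGT1A6 had no count in any library, and CYP1A2, the liver member of family 1, had 1 count in each library at 75 µg/ml and none elsewhere. UGT1A1 and UGT1A6 share exons with other UGT1A genes, so that their counts of 0 do not show their level.

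Genes of the receptor's chaperones, coactivators and other partners moved both ways. At 150 µg/ml against DMSO 6 rose and 8 fell of 18, with a median log2 fold change of -0.04 that became 0.15 under total counts, where 9 rose and 7 fell. The counts at 75 µg/ml against DMSO were 4 rises and 9 falls (4 and 6 under total counts). Rises were thus 33.3% of the list at 150 and 22.2% at 75 µg/ml, beside 25.8% and 19.2% of all tested genes. The 8 and 9 falls among the 18 genes stand beside 25.7% and 19.4% of all tested genes that were lower, so falls were more frequent in the list. Called in either direction were 77.8% and 72.2% of the list, beside 51.5% and 38.6%. Both HSP90 genes, whose protein holds the unliganded receptor, fell. HSP90AB1 had 1895 and 1961 CPM at 150 µg/ml against 3286 and 3199 CPM in DMSO, or -0.75 on the log2 scale (SE 0.0399, adjusted p = 6.5e-11, edgeR). HSP90AA1 had 2061 and 2005 CPM at 150 µg/ml against 3180 and 3197 CPM in DMSO (-0.65, adjusted p = 3.6e-10, edgeR). Both are known to have processed copies in the genome, and their levels are uncertain to that extent. RELB, an NF-kB subunit gene whose protein can pair with AHR, was chosen after its values were seen. It had 35.7 and 33.7 CPM at 150 µg/ml against 10.2 and 10.8 CPM in DMSO (log2 fold change 1.73, adjusted p = 6.2e-10, edgeR).

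In the rest of the bHLH-PAS family, the transcription factor family of AHR, ARNT and AHRR, 3 rose and 4 fell of 9 tested at 150 µg/ml against DMSO (5 and 2 under total counts), and 2 rose and 3 fell at 75 µg/ml against DMSO. Rises were 33.3% of the tested members at 150 and 22.2% at 75 µg/ml, beside the 25.8% and 19.2% of all tested genes. The 4 and 3 falls among the 9 stand beside 25.7% and 19.4% of all tested genes that were lower. Called in either direction were 77.8% and 55.6% of the 9, beside 51.5% and 38.6%. EPAS1, which encodes the hypoxia-inducible factor HIF-2 alpha, had 218 and 203 CPM at 150 µg/ml against 87.1 and 92.4 CPM in DMSO (log2 fold change 1.23, adjusted p = 1.6e-11, edgeR). BMAL2, a clock factor gene, had 68.4 and 72.6 CPM at 150 µg/ml against 94.7 and 93.0 CPM in DMSO (-0.41, adjusted p = 3.2e-05, edgeR). Both were called in the same direction at 75 µg/ml against DMSO.

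The other P450 genes mostly had few reads or did not pass the test. Of 55 such genes 22 had no count in any library and 16 were tested. CYP4F11 was tested only through the 150 µg/ml libraries (14 and 11 counts, 0 to 3 elsewhere). At 150 µg/ml against DMSO 5 rose and none fell (7 and none under total counts), with a median log2 fold change of 0.35. Against DMSO, 5 rose and 2 fell at 75 µg/ml (6 and none under total counts). The share called at 150 µg/ml, 31.25%, is below the 51.5% of all tested genes, and the share higher is near their 25.8%. At 75 µg/ml the share called was 43.75%, above the 38.6% of all tested genes, and 31.25% were higher, beside 19.2%. CYP4V2, a fatty acid hydroxylase gene, had 31.6 and 34.3 CPM at 150 µg/ml against 17.2 and 17.1 CPM in DMSO (log2 fold change 0.94, adjusted p = 3.7e-07, edgeR). CYP27B1, the vitamin D 1-alpha-hydroxylase gene, had 3.32 and 1.97 CPM at 150 µg/ml against 0.692 and 0.850 CPM in DMSO (1.77, adjusted p = 0.00107, edgeR). Among 8 genes of P450 electron donors and epoxide hydrolases, 2 rose and 3 fell at 150 µg/ml against DMSO (2 and 1 under total counts), and 3 rose and 1 fell at 75 µg/ml (4 and none under total counts). Of the 8 genes 25% were higher at 150 µg/ml, beside 25.8% of all tested genes, and 37.5% at 75 µg/ml, beside 19.2%. Called in either direction were 62.5% at 150 and 50% at 75 µg/ml, beside 51.5% and 38.6%. EPHX1, the microsomal epoxide hydrolase gene, had 58.7 and 62.4 CPM at 150 µg/ml against 35.7 and 36.9 CPM in DMSO (log2 fold change 0.74, adjusted p = 5.0e-07, edgeR). CYB5R3, a cytochrome b5 reductase gene, had 179 and 177 CPM at 150 µg/ml against 250 and 237 CPM in DMSO (-0.45, adjusted p = 6.7e-07, edgeR).

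Of 15 other PARP genes 9 rose and 3 fell at 150 µg/ml against DMSO (11 and 2 under total counts), and 5 rose and 2 fell at 75 µg/ml (8 and 2 under total counts). Called were 80% at 150 µg/ml, beside 51.5% of all tested genes, and 46.7% at 75 µg/ml, beside 38.6%. The 2 with the smallest p were falls. PARP1, the DNA damage sensor gene, had 242 and 253 CPM at 150 µg/ml against 458 and 447 CPM in DMSO (log2 fold change -0.87, adjusted p = 6.4e-11, edgeR). PARP4 had 177 and 188 CPM at 150 µg/ml against 255 and 267 CPM in DMSO (-0.52, adjusted p = 1.9e-07, edgeR). The rises of the other family members at 150 µg/ml ran up to a log2 fold change of 0.87, below the 1.21 of TIPARP.

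Of 12 genes of enzymes that make or remove tryptophan-derived AHR ligands, 6 were tested, and 2 rose and 2 fell at 150 µg/ml against DMSO (3 and none under total counts). Against DMSO, 2 rose and 1 fell at 75 µg/ml (3 and none under total counts). At 150 µg/ml 33.3% of these 6 were higher and 33.3% lower, beside 25.8% and 25.7% of all tested genes. KYAT1 (11 and 15 counts in the DMSO libraries, 4 or 5 in each AF-EAE library) passed the filter on low counts only through DMSO libraries. For it a call could hardly be other than a fall, and for KYNU other than a rise, so the shares say nothing of the list. The dioxygenase genes TDO2, IDO1 and IDO2, which start kynurenine synthesis, had no count in any library. KYNU, the kynureninase gene, which is also in the list of AHR-induced genes, had 2.66 and 2.26 CPM at 150 µg/ml against 0.504 and 0.261 CPM in DMSO (log2 fold change 2.65, SE 0.436, adjusted p = 6.4e-05, edgeR). This gene passed the filter on low counts only through AF-EAE libraries. KYAT3, a kynurenine aminotransferase gene, had 43.2 and 46.4 CPM at 150 µg/ml against 34.1 and 36.9 CPM in DMSO (0.34, adjusted p = 0.00275, edgeR), and its value at 75 µg/ml did not pass (0.17, adjusted p = 0.127, edgeR).

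**Figure D3:**
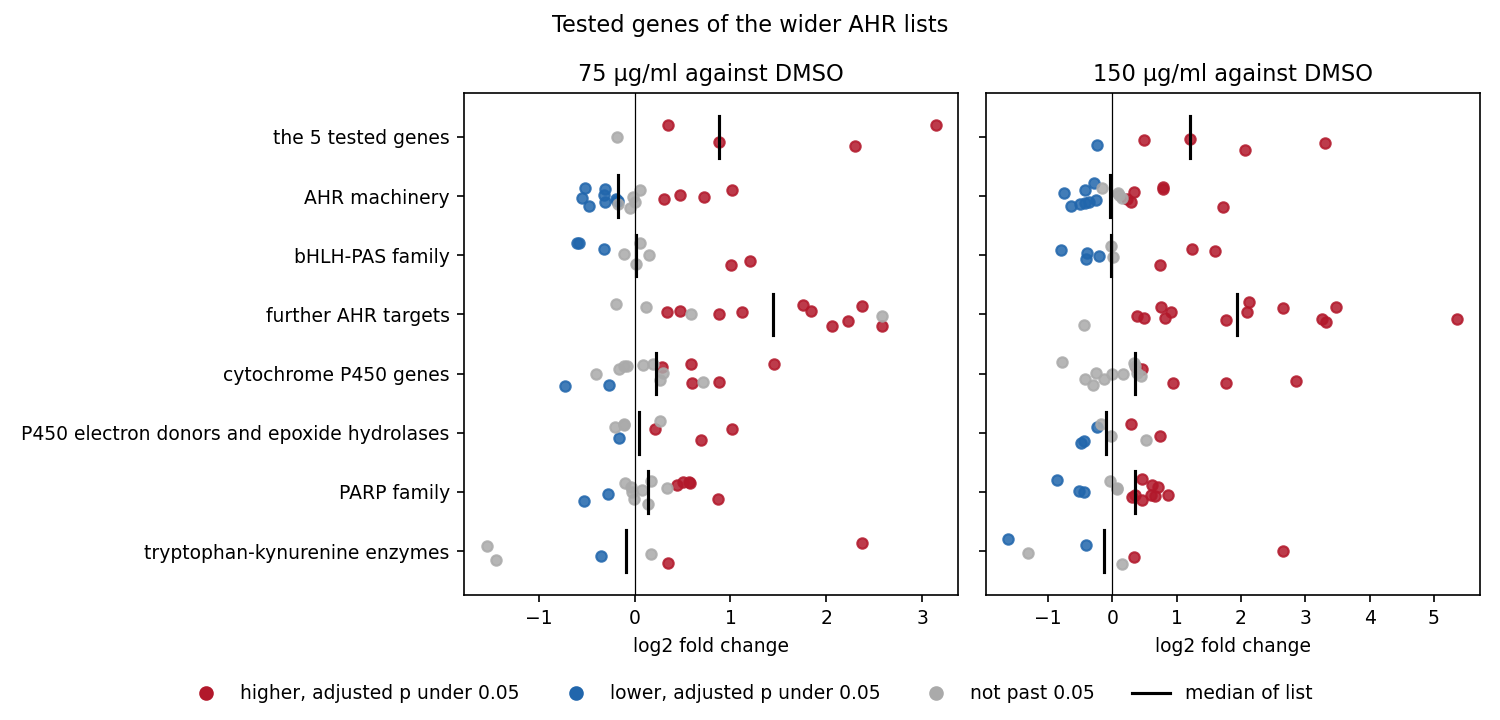
Log2 fold changes of the tested genes of the 7 lists and, in the top row, of the 5 tested pathway genes (x axes), at 75 and at 150 µg/ml against DMSO. Each point is a gene, red where higher and blue where lower at an adjusted p under 0.05 and grey otherwise, and the black bar is the median. The further AHR-induced genes have medians of 1.44 at 75 and 1.93 at 150 µg/ml, and the other 6 lists have medians between -0.18 and 0.35.

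Genes whose course over the 6 libraries was most like that of each member were found by Euclidean distance of log2(CPM + 1), less the mean of the DMSO libraries, among 9506 genes with a symbol and a mean of 10 CPM or more. A smaller distance is a closer course, and the measure says nothing of shared control. For CYP1B1 the nearest were ADM2 (0.801), CSF2 (0.807), IL1B (0.837), NMRAL2P (0.929) and ZMIZ1-AS1 (0.944), against a median of 6.38 for the pool. CSF2, the gene of the cytokine GM-CSF, had 28.4 and 24.7 CPM at 75 µg/ml and 26.6 and 34.5 CPM at 150 µg/ml, against 3.21 and 3.33 CPM in DMSO. Its log2 difference between the doses was 0.20, with a range of 0.0052 to 0.39 over the alternative fits. For ADM2, the gene of adrenomedullin 2, it was 0.95. These genes were chosen for their course in the same libraries, so their differences are a description.

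The gene nearest to CYP1A1 was CSF3 (0.411), the gene of the cytokine G-CSF, ahead of ABCC3 (0.563) and SEL1L3 (0.572), with a pool median of 4.04. CSF3 had 255 and 240 CPM in the DMSO libraries, 1187 and 1296 CPM at 75 µg/ml and 745 and 918 CPM at 150 µg/ml. Like the mean of CYP1A1 it was highest at the lower dose, a pattern for which it was chosen here, and its log2 difference was -0.58 at 150 against 75 µg/ml. Nearest to TIPARP were TATDN3 (0.114), IFI35 (0.131) and SLC2A3 (0.145), the gene of the glucose transporter GLUT3, with a pool median of 2.19. Nearest to ARNT were EXOC1 (0.0429), VAMP4 (0.0464) and KDM5C (0.0662), with a pool median of 0.992. Nearest to AHR were SELENOO (0.0711), FBXO9 (0.111) and CCDC50 (0.114), with a pool median of 0.634. The distances grow with the size of a gene's own change, so they are not comparable between members.

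**Figure D4:**
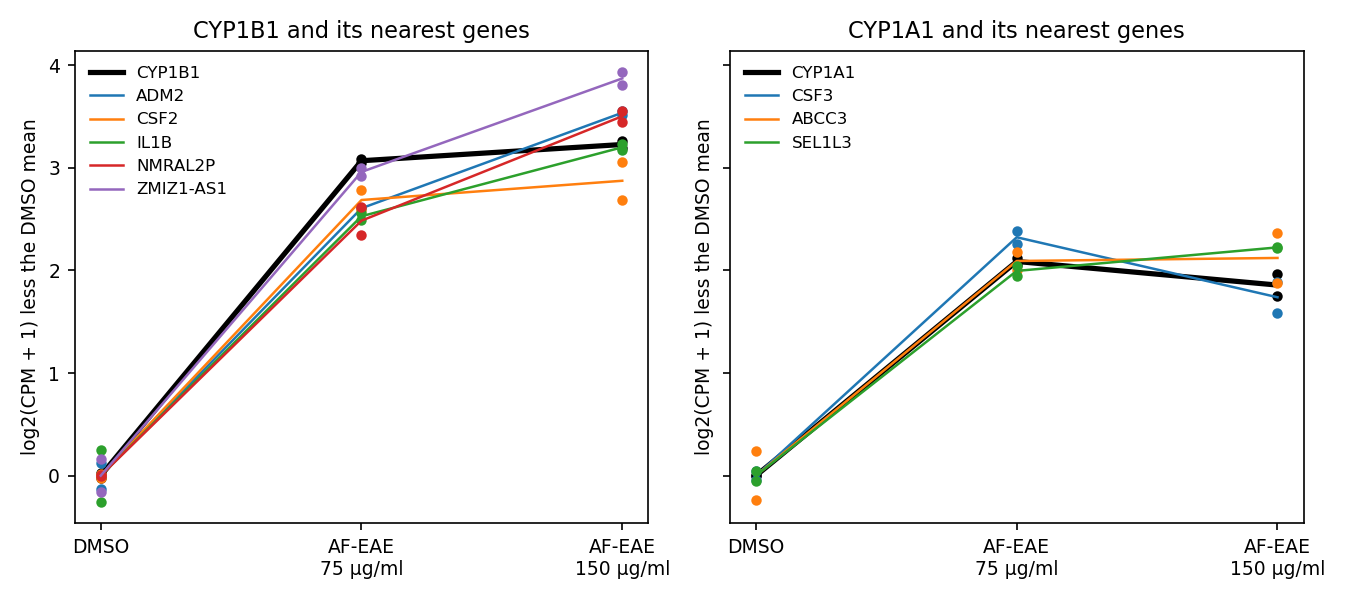
Log2(CPM + 1) less the mean of the DMSO libraries (y axes) for CYP1B1 and CYP1A1 (black) and their nearest genes (colours) at DMSO, 75 and 150 µg/ml (x axes). Points are libraries and lines join the means of 2 libraries. CSF3 follows CYP1A1 with its highest level at 75 µg/ml, and ADM2 is 0.95 higher at 150 than at 75 µg/ml in the fit, against 0.16 for CYP1B1.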

How the data were processed

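Raw counts per gene were deposited by the authors, 1 table for each of 6 libraries. Per the submitters' processing notes, HISAT2 2.2.1, HTSeq 2.0.2 and the hg38 build were used. The annotation release, the strand setting and the handling of reads in 2 genes are not stated in any source used here. Summary rows (reads in no gene, 6.32 to 7.98%, and ambiguous reads, 11.0 to 11.5% of all) were kept out of library sizes. Of 60651 gene rows 15589 passed filterByExpr. They were fitted together in edgeR 4.0.16 (R 4.3.3), with TMM scaling and a quasi-likelihood test. The test had 3 residual degrees of freedom and a median of 13.8 prior ones, so p-values and intervals rest largely on spread borrowed across genes. The p-values were adjusted by Benjamini-Hochberg with a threshold of 0.05. The script was tested on simulated data. GENCODE 29 gave coordinates and shared exons. Alternatives were other scalings and filters, DESeq2 1.42.0, limma-voom (limma 3.58.1), a replicate block, the compared groups alone, stricter thresholds, and leaving out each library. The 2 libraries of a group differed by more than counting noise. The 6 genes and all lists were chosen with earlier results of these data known. Named genes were the 6, genes sharing their exons, the 2 with the smallest p per list at 150 µg/ml (mean of 1 CPM or more) and the nearest genes. NQO1, RELB, ABCG2 and the genes given for having few or no counts were chosen after their values were seen.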

Additional observations from a re-analysis of the deposited data

How the results depend on the processing

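The rises of ARNT, CYP1A1, CYP1B1 and TIPARP over DMSO kept direction and call in all 14 alternative fits at both doses. At 150 µg/ml against DMSO their log2 fold changes ranged over 0.46 to 0.67, 1.94 to 2.25, 3.27 to 3.49 and 1.17 to 1.40. The fall of AHR and the step of CYP1B1 between the doses lost their calls under 6 alternatives each, which are given beside those results, and the cause was not tested. AHR's value for 150 against 75 µg/ml changed sign under total-count scaling (0.012) and without replicate 1 of the 75 µg/ml group, and leaving out 1 library gave -0.13 to 0.042.

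When an absolute log2 fold change of 1 was also required, 3, 2 and 0 of the 5 genes were called at 150 against DMSO, 75 against DMSO and 150 against 75 µg/ml, with 1827, 936 and 226 of all genes and 14, 12 and 5 of the 85 tested list genes. Without it these were 5, 4 and 2, then 8022, 6015 and 3433, then 59, 48 and 23. For 150 against 75 µg/ml, 1 of the 5 genes was called with no filter on low counts, with DESeq2 and at an adjusted p under 0.01, where 1883 of all genes were called. Leaving out 1 library gave 1 to 2 of the 5 genes, 1507 to 3714 of all genes and 12 to 25 list genes in that comparison. The lowest counts came without replicate 1 of the 150 µg/ml group. A group left with 1 library is assumed to vary like the others.

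With the replicate number as a block, 5, 4 and 2 of the 5 genes, 8193, 6292 and 3776 of all genes and 60, 51 and 26 list genes were called. The labels do not say that a number pairs libraries, and deviations of same-numbered libraries correlated at 0.0731, 0.0414 and 0.0054. Depth limits AHRR, which had 0 to 6 counts per library, and 2 libraries per group limit all intervals.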
